A study of Mus musculus with 9 samples.

Results

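The genes described here are 9 members of the kinase cascade that sets cellular chloride and volume, out of 54838 gene identifiers in the count table. They are the kinases Stk39 (SPAK), Oxsr1 (OSR1), Wnk1, Wnk2 and Wnk4 and the cotransporter genes Slc12a2, Slc12a4, Slc12a7 and Slc12a9. The set was selected on a measured value: it was put together because Stk39 had no count in any knockout library while the other libraries expressed it. Levels in the knockout clone are therefore a description for all members, given with no p-value, and they support nothing by themselves. Where a member's difference is said to be called or to pass the test, this is part of that description. For Stk39 such a call was fixed by the choice.

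All libraries come from PDA530 Met, a pancreatic ductal adenocarcinoma line that was established from a liver metastasis. The donor was a KPC mouse, a genetic model of this cancer. This mouse was male and of mixed 129/SvJae/C57Bl/6 background. The knockout group is clone E4, a single-cell clone edited by CRISPR/Cas9 in Zdhhc20, which encodes a palmitoyltransferase. The control group is clone C5, a single-cell clone that received the same guide RNAs, stayed unedited and still expresses Zdhhc20. The parental group is the uncloned line, named PDA50 Met in one text and PDA530 Met in the labels. Each group has 3 libraries from untreated cells in DMEM with 10% serum. The knockout and the control are 1 clone each, so a group's spread is that between libraries of a single clone, and editing cannot be told apart from other differences between these clones. The p-values measure the spread between such libraries. Comparisons that have a group in common also share its libraries. Both comparisons of the knockout clone use the same knockout libraries and are not independent of each other.

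WNK kinases sense chloride and osmotic state. They phosphorylate SPAK and OSR1, related kinases with overlapping substrates. SPAK and OSR1 in turn phosphorylate the cotransporters: this activates NKCC1 (Slc12a2), which loads cells with sodium, potassium and chloride, and inhibits the KCC family (Slc12a4, Slc12a7 and relatives), which exports potassium and chloride. In ductal epithelia of the pancreas the same machinery takes part in anion and fluid secretion. The control of this cascade is largely by phosphorylation, which mRNA counts do not show.

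Library totals ranged from 16525869 to 23192701 counts. Levels are CPM, the counts scaled for library depth with TMM factors, and CPM per kb of annotated exon where genes are compared with each other. The targeted gene Zdhhc20 read 37.5, 33.9 and 42.5 CPM in the knockout libraries, 123, 85.8 and 120 in the control libraries and 75.3, 81.2 and 90.7 in the parental libraries. Its transcript was lower in the clone labelled knockout. The log2 difference was -1.53 from the control clone (SE 0.15, adjusted p = 6.97e-05) and -1.12 from parental cells (SE 0.15, adjusted p = 0.000585). Of 7 ductal or epithelial markers all were tested, and their summed level was 4318 to 4446 CPM in the knockout clone, 7008 to 9379 in the control clone and 6696 to 8165 in parental cells. The ductal keratins were expressed, whereas Epcam, a defining surface marker, stayed under 1 CPM in every library. Against the control clone 5 of the 7 were lower and 1 higher in the knockout clone, beside 24.2% and 18.7% of all tested genes. Against parental cells 4 were lower and 1 higher, beside 18.3% and 13.1%. The higher one was Epcam in both, from 34, 9 and 11 counts in the knockout, control and parental groups. Krt19 fell most, with means of 172 CPM in the knockout clone, 1491 in the control clone and 1141 in parental cells. The islet markers Ins1, Ins2 and Gcg had no count in any library, and the summed leukocyte markers did not pass 0.175 CPM. Summed markers of hepatocytes, acinar cells and fibroblasts reached at most 3.00, 7.66 and 3.61 CPM.

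Stk39 encodes SPAK, the kinase that carries the WNK signal to the cotransporters. It had 0 counts in each of the 3 knockout libraries. The control libraries held 175, 209 and 203 counts (7.64, 12.4 and 10.7 CPM) and the parental libraries 258, 209 and 218 (12.4, 12.3 and 12.8 CPM). The knockout libraries lie apart from all others, while control libraries 1 and 3 lie below the parental range and control library 2 within it. Against a floor of 3 counts over the 3 libraries of a group, which is 0.0540 CPM in the knockout clone, Stk39 was at least 185-fold lower than in the control clone and at least 232-fold lower than in parental cells. Bounds of this kind cover counting error alone, because no molecular identifiers were used and reads may repeat a molecule. In bulk RNA, fewer expressing cells and less RNA per cell cannot be told apart.

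Stk39 lies at chr2:68210445-68472268 on the minus strand (GENCODE M21, build GRCm38). The 250 bases before its RefSeq start hold 43 CpG and 82.4% G or C, and 0.712% of 32851 RefSeq promoter windows of this length hold as many CpG or more. GENCODE M21 puts all of this window inside the bounds of the gene, so it is not printed. Promoter windows were found for 8 of the 9 members. Those of Oxsr1, Wnk1 and Wnk4 follow because they belong to the kinases whose levels the results compare with Stk39: the close relative of SPAK, the main WNK kinase of these cells and the WNK kinase that was also low in the knockout clone. They are written 5′ to 3′ on the strand of the gene from RefSeq (GRCm38.p6), with each CpG in capitals, and leave out bases that GENCODE M21 puts inside the gene.
Oxsr1 chr9:119322428-119322677 minus strand: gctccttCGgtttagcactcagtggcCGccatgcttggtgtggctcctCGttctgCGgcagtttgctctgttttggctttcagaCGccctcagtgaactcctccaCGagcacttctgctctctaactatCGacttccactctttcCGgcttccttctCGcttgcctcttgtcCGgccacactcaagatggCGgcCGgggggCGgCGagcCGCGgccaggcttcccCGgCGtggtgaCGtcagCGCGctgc
Wnk1 chr6:120038673-120038905 minus strand: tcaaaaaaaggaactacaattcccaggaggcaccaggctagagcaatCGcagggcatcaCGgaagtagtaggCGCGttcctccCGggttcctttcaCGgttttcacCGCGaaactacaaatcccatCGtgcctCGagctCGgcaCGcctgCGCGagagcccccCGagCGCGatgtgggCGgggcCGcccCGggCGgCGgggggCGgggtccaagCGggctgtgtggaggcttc
Wnk4 chr11:101260317-101260566 plus strand: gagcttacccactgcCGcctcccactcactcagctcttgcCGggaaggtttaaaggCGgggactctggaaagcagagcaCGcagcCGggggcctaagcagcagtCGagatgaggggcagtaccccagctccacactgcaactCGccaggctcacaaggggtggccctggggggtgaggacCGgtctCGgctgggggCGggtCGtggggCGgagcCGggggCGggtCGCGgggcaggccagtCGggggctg

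The full windows of 250 bases hold 21 CpG for Oxsr1, 26 for Wnk1 and 17 for Wnk4, against a median of 6 over all windows. At least as many CpG were present in 16.4%, 9.59% and 23.5% of windows, in that order. The GC box, spelled GGGCGG and searched on both strands, occurred 4 times for Stk39, 1 time for Oxsr1, 4 times for Wnk1 and 3 times for Wnk4, and 32.7% of windows hold it. The E-box spelled CACCTG was in none of these 4 windows and in 17.2% of all windows, and the AP-1 motif spelled TGANTCA was also in none of the 4 and in 6.75% of all. The Stk39 window lies inside the annotated gene and those of the other kinases lie upstream or nearly so, which limits a comparison of their content. A match is a description of letters and does not show binding, and methylation was not measured.

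Oxsr1 encodes OSR1, the close relative that shares substrates with SPAK. Its level was 118, 117 and 128 CPM in the knockout libraries, 119, 146 and 127 in the control libraries and 136, 133 and 137 in the parental libraries. The knockout and control ranges overlap, and the knockout range lies below the parental one. The log2 difference of the knockout clone was -0.12 (SE 0.09) against the control clone and -0.17 (SE 0.09) against parental cells, and neither passed the test. The second was called in 1 of 17 alternative fits, that of only the groups compared. For reference, the 748 tested genes of chromosome 9, where Oxsr1 lies, had median log2 differences of -0.53 and -0.53 in these comparisons.

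Per kb of exon, Stk39 was the minor of the 2 effector kinases even where it was expressed. Its share of the summed Stk39 and Oxsr1 level was 7.73% ± 1.08 (SD, n = 3) in the control clone and 9.07% ± 0.11 in parental cells. In the knockout clone the share was 0%. The summed level of both kinases was 22.6 ± 1.14 CPM per kb in the knockout clone, 26.5 ± 3.03 in the control clone and 27.9 ± 0.395 in parental cells. The knockout libraries reached 21.8 to 23.9 CPM per kb and the control libraries 23.8 to 29.8, so these ranges overlap narrowly, while the parental range of 27.4 to 28.2 lies above the knockout range.

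**Figure D1:**
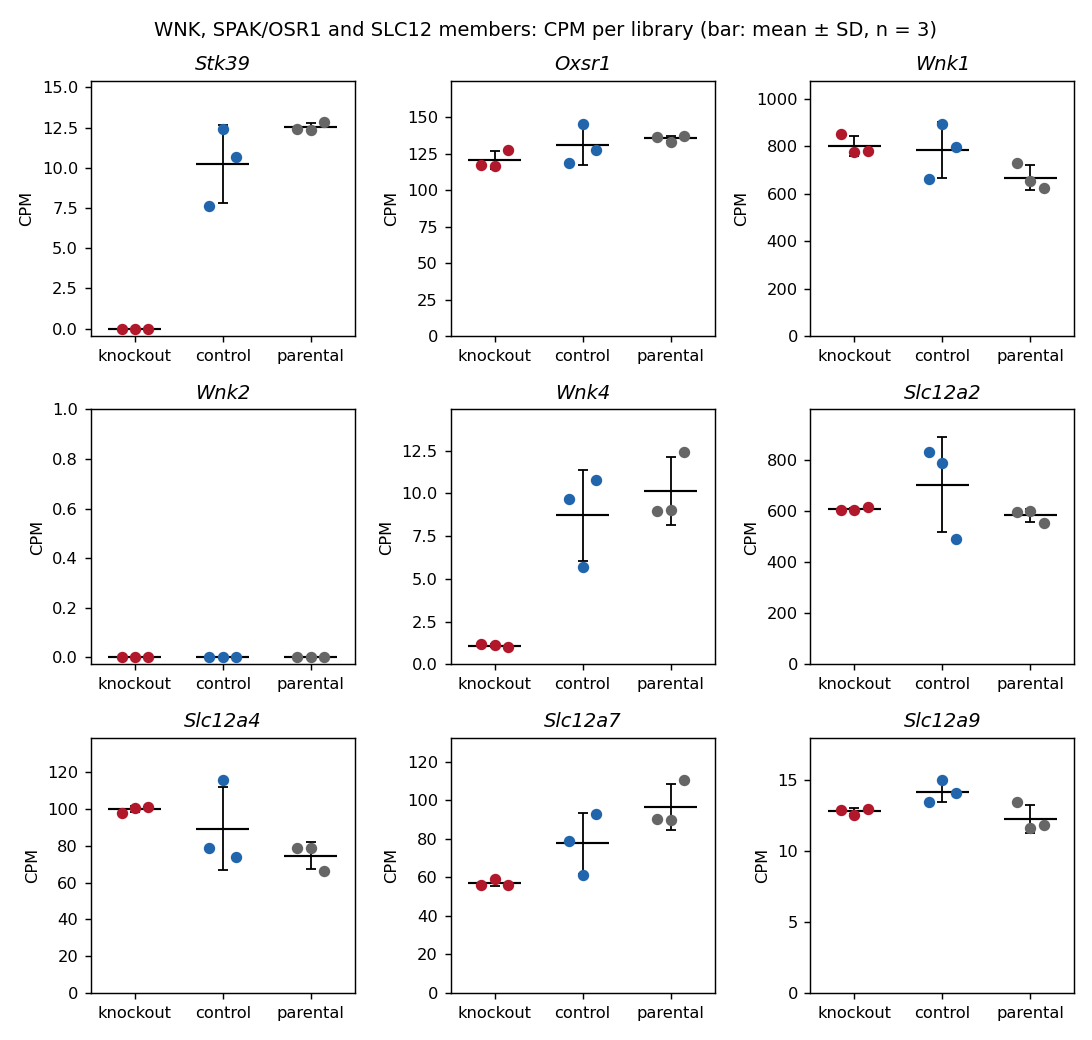
Level of the 9 members in CPM after TMM scaling, 1 panel per gene with its own axis that includes 0. Points are the 3 libraries of the knockout clone, the control clone and the parental cells, and lines with bars are the mean ± SD. Stk39 lies at 0 and Wnk4 near 1 CPM in the knockout clone, while Oxsr1 lies between 117 and 146 CPM in every library.

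Wnk1 encodes the most abundant WNK kinase of these cells. Its level was 852, 777 and 781 CPM in the knockout libraries, 661, 896 and 797 in the control libraries and 728, 654 and 623 in the parental libraries. The knockout libraries lie within the control range and above all parental libraries. The log2 difference was 0.03 (SE 0.11) against the control clone and 0.27 (SE 0.11) against parental cells, and neither passed the test. The difference from parental cells was called in 3 of 17 alternative fits.

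Wnk4 encodes a WNK kinase known for its control of salt transport in epithelia. It stood at 1.17, 1.11 and 0.993 CPM in the knockout libraries, which is 24, 20 and 17 counts. The control libraries held 9.65, 5.71 and 10.8 CPM and the parental libraries 8.96, 9.02 and 12.4 CPM. All knockout libraries lie below all others. Its mean CPM was 7.97-fold lower than in the control clone and 9.27-fold lower than in parental cells, with log2 differences of -2.99 (SE 0.28) and -3.20 (SE 0.28). Unlike Stk39, Wnk4 kept counts in every knockout library. Exons of Gm11615 on the other strand overlap those of Wnk4, and Gm11615 was listed at 0 in all libraries.

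Wnk2, another WNK kinase, had 0 counts in all 9 libraries and was not tested. A count of 0 allows up to 0.0540 CPM over the knockout libraries, 0.0510 over the control libraries and 0.0548 over the parental libraries. Per kb, Wnk4 made up 0.743% ± 0.044 (SD, n = 3) of the summed Wnk1 and Wnk4 level in the knockout clone, 5.91% ± 2.20 in the control clone and 7.76% ± 1.87 in parental cells. Wnk1 thus supplied most WNK transcript in every group.

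**Figure D2:**
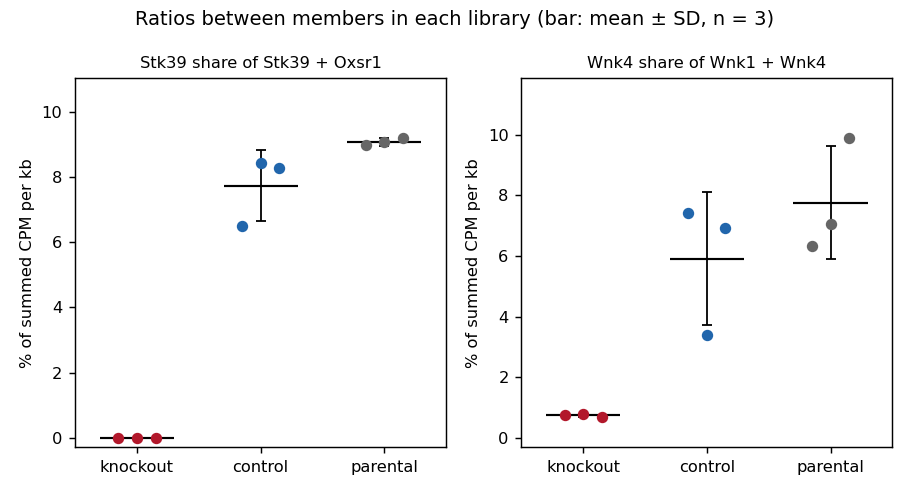
Shares per library from CPM per kb, in percent: Stk39 in Stk39 plus Oxsr1 and Wnk4 in Wnk1 plus Wnk4. Points are the 3 libraries of a group and lines with bars the mean ± SD. The Stk39 share is 0% in the knockout clone against means of 7.73% and 9.07%, and the Wnk4 share is 0.743% against means of 5.91% and 7.76%.

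Slc12a2 encodes NKCC1, the chloride-loading cotransporter that SPAK and OSR1 activate. Its level was 604, 603 and 616 CPM in the knockout libraries, 833, 789 and 492 in the control libraries and 596, 603 and 555 in the parental libraries. Control library 3 lies below every other library and control libraries 1 and 2 above every other, so the knockout values fall inside the control range. The log2 difference was -0.21 (SE 0.16) against the control clone and 0.06 (SE 0.16) against parental cells, and neither passed the test. Without control library 3 the difference from the control clone was -0.42 and was called.

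Slc12a4 encodes KCC1, a broadly expressed potassium-chloride exporter. It read 98.0, 101 and 101 CPM in the knockout libraries, 78.6, 115 and 73.9 in the control libraries and 78.7, 78.7 and 66.2 in the parental libraries. The knockout libraries lie inside the control range and above all parental libraries. The log2 difference was 0.16 (SE 0.16) against the control clone and 0.42 (SE 0.16) against parental cells, and neither passed the test. The second was called in 6 of 17 alternative fits, and the first without control library 2, at 0.39. Exons of Gm16156 on the other strand overlap Slc12a4, and it had at most 1 count in any library.

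Slc12a7 encodes KCC4, another exporter of the family. Its level was 56.1, 58.9 and 55.8 CPM in the knockout libraries, 78.7, 61.3 and 92.9 in the control libraries and 90.0, 89.5 and 110 in the parental libraries. The knockout libraries lie below all others, with control library 2 only slightly above them. The log2 difference was -0.45 (SE 0.14) against the control clone and -0.76 (SE 0.14) against parental cells. Both were called, but the first lost its call in 8 of 17 alternative fits, including those without knockout library 1, 2 or 3 (-0.43, -0.46 and -0.43), without control library 1 or 3 (-0.44 and -0.30) and without parental library 1 or 2 (-0.44 and -0.44). The second kept it in all 17. The 542 tested genes of chromosome 13, where Slc12a7 lies, had a median log2 difference of 0.33 against the control clone and 0.12 against parental cells.

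Slc12a9 encodes an orphan member of the family whose transport role is less clear. It read 12.9, 12.6 and 13.0 CPM in the knockout libraries, 13.5, 15 and 14.1 in the control libraries and 13.4, 11.6 and 11.8 in the parental libraries. The knockout libraries lie below the control range and inside the parental range. The log2 differences were -0.15 (SE 0.10) and 0.06 (SE 0.10), and neither passed the test.

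By level per kb, parental cells ordered the members as Slc12a2 (53.5 ± 2.41 CPM per kb), Wnk1 (29.3 ± 2.36), Oxsr1 (25.3 ± 0.351), Slc12a4 (17.4 ± 1.69) and Slc12a7 (7.62 ± 0.932). Stk39 (2.53 ± 0.054), Slc12a9 (2.45 ± 0.199) and Wnk4 (2.44 ± 0.477) followed, and neighbours among these 3 overlap. The control clone had the same first 5 genes, with overlapping ranges for Oxsr1 (24.4 ± 2.56) and Slc12a4 (20.9 ± 5.32). In the knockout clone Slc12a4 (23.4 ± 0.402) and Oxsr1 (22.6 ± 1.14) also overlap, Slc12a9 (2.56 ± 0.0435) lies above Wnk4 (0.263 ± 0.022), and Stk39 had no level.

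Across the members, 3 of 8 tested genes were called against the control clone and 3 of 8 against parental cells. These were Stk39, Wnk4 and Slc12a7 in both, each lower, and for Stk39 this follows from the choice. Of all 13153 tested genes, 42.9% were called against the control clone (18.7% higher, 24.2% lower) and 31.4% against parental cells (13.1% higher, 18.3% lower). The same 3 of 8 members had knockout libraries that do not overlap the 6 others, as did 34.2% of all tested genes. The median log2 difference of the 8 members was -0.18 and -0.06, beside -0.02 and -0.01 over all tested genes. Since the choice of members rests on these contrasts, nothing is read from the counts.

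**Figure D3:**
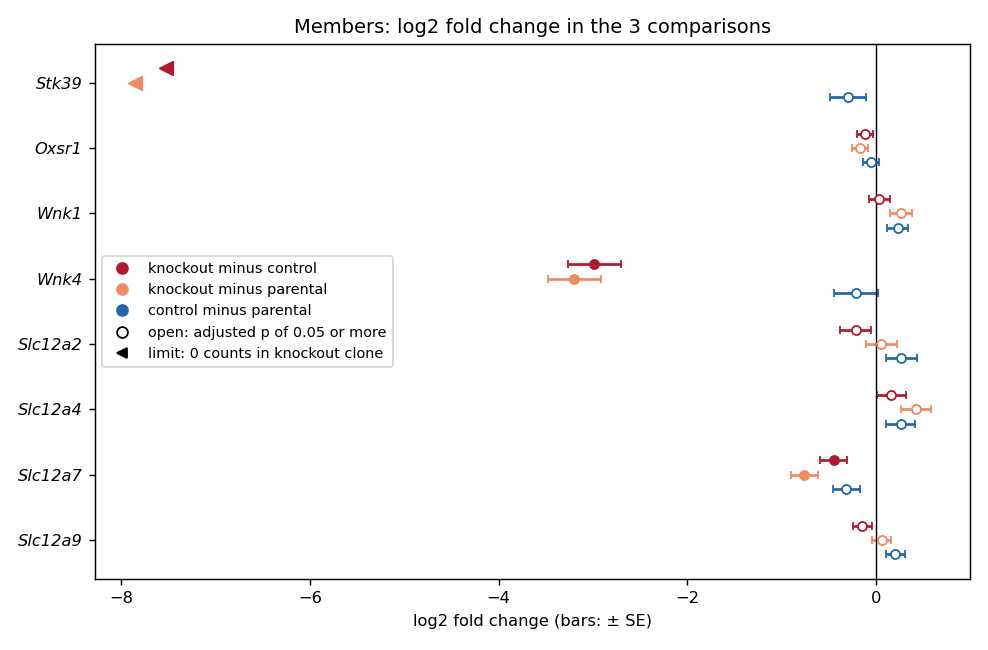
Log2 fold change of each tested member in the 3 comparisons, with ± SE as horizontal bars. Filled points passed an adjusted p of 0.05 in the fit over all genes, open points did not, and triangles draw Stk39 in the knockout clone at its counting limit. Wnk4 lies at -2.99 and -3.20, and all tested members lie within 0.31 of 0 between the control clone and parental cells.

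The comparison of the control clone with parental cells asks how far these genes vary where Zdhhc20 was not edited. Expression of Stk39 in both groups was part of the choice, so its difference is given without a p-value, and the other members were chosen with earlier results known. None of the 8 tested members passed the edgeR quasi-likelihood test, against 21.4% of all tested genes (10.4% higher, 11% lower), and the smallest adjusted p was 0.151. The count at an unadjusted p under 0.05 was 0 with edgeR, 1 with DESeq2 and 1 with limma voom, and the last 2 also called none. Stk39 differed by -0.29 (SE 0.19) and Wnk4 by -0.21 (SE 0.23, adjusted p = 0.549). For Oxsr1 the difference was -0.05 (SE 0.09, adjusted p = 0.701), for Wnk1 0.23 (SE 0.11, adjusted p = 0.175) and for Slc12a2 0.27 (SE 0.16, adjusted p = 0.272). The exporters gave 0.26 for Slc12a4 (SE 0.16, adjusted p = 0.265) and -0.31 for Slc12a7 (SE 0.14, adjusted p = 0.151). Slc12a9 was higher in all control libraries than in all parental ones, by 0.21 (SE 0.10, adjusted p = 0.18), without passing the test.

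Single control libraries decided some of these results. Without control library 3, Slc12a2 was higher in the control clone by 0.47 (adjusted p = 0.00098) and Slc12a7 was lower (-0.46, adjusted p = 0.0221). Without control library 1, Wnk1 was higher by 0.34 (adjusted p = 0.0458).

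Other genes of the cascade and of chloride, water and volume control were taken from a list of 52 genes, of which 44 were tested. Against the control clone 27 of the 44 were called (8 with a higher level in the knockout clone and 19 with a lower one), beside 42.9% of all tested genes. Against parental cells 19 were called, 3 higher and 16 lower, beside 31.4%. The median log2 difference of the list was -0.24 and -0.26. In both comparisons and in the same direction 14 genes were called, 3 higher and 11 lower, beside 21.5% of all tested genes (8.19% higher, 13.4% lower). Of the 44, 20 had knockout libraries that do not overlap the 6 others, beside 34.2% of all tested genes. Between the control clone and parental cells 12 were called, 3 higher and 9 lower, beside 21.4%, with a median of -0.08. The summed epithelial markers moved with the knockout clone as given above, and their part in these counts was not tested.

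**Figure D4:**
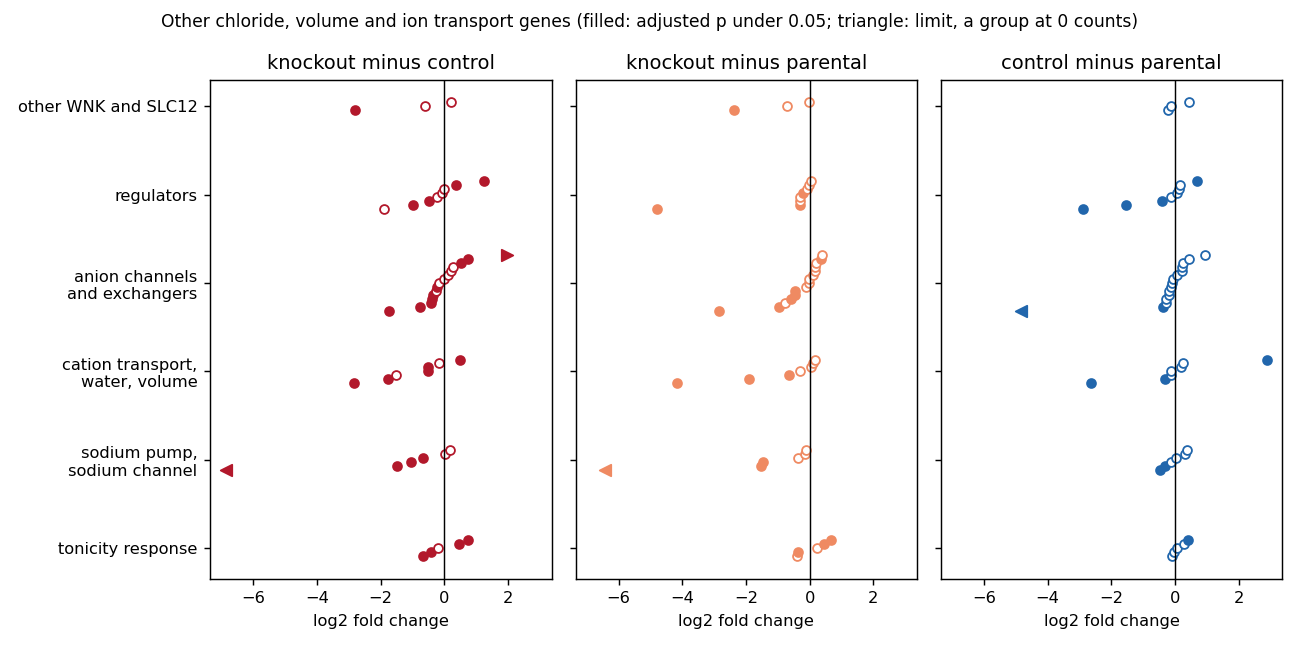
Log2 fold change of each of the 44 tested pathway genes, in rows by role, with 1 panel for each of the 3 comparisons. Filled points passed an adjusted p of 0.05, open points did not, and triangles are counting limits of genes with a group at 0 counts. Filled points number 27, 19 and 12 from left to right, limits included.

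Other WNK and SLC12 genes were low in these cells where they are described here. Slc12a1, the kidney loader NKCC2, had 4, 3 and 4 counts in the knockout libraries, 45, 16 and 25 in the control libraries and 26, 12 and 20 in the parental libraries. Relative to the control clone it fell by 2.80 on the log2 scale (SE 0.43, adjusted p = 0.000787), and by 2.37 against parental cells (SE 0.45, adjusted p = 0.0034), from low levels of 1.41 and 1.05 CPM. Slc12a5, the neuronal exporter KCC2, stayed below 1 CPM in every library and differed by -0.60 (adjusted p = 0.33) and -0.72 (adjusted p = 0.277). Wnk3, Slc12a3 and Slc12a8 had between 0 and 4 counts per library and were not tested.

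Of 8 regulators of the kinases, all tested, 2 were higher and 2 lower against the control clone, and 3 were lower against parental cells. These 4 and 3 calls stand beside 42.9% and 31.4% of all tested genes. Cab39l, which encodes a scaffold that activates SPAK and OSR1, was lower in both (-0.48, adjusted p = 0.00369, and -0.32, adjusted p = 0.0337). Cab39, a related scaffold gene, had the higher level per kb. Its means were 21.0, 22.3 and 24.5 CPM per kb in the knockout, control and parental groups, beside 5.68, 7.90 and 7.08 for Cab39l. Cab39 gave -0.08 (adjusted p = 0.376) against the control clone and was lower against parental cells (-0.22, adjusted p = 0.0415). Sgk1, a kinase induced by hormones and osmotic stress, stood at 109, 126 and 97.5 CPM in the knockout libraries, 48.6, 60.0 and 33.0 in the control libraries and 138, 137 and 136 in the parental libraries. The control clone is the group that stands apart here: Sgk1 in the knockout clone exceeded its control-clone level by 1.23 (SE 0.19, adjusted p = 0.000727), lower in the control clone than in parental cells by 1.54 (-1.54, SE 0.19, adjusted p = 0.000806), and the knockout clone against parental cells gave -0.30 (SE 0.18, adjusted p = 0.235), which was called in 2 of 17 alternatives. Klhl3, which targets WNK kinases for degradation, had 22, 16 and 26 counts in the parental libraries, 3, 0 and 6 in the control libraries and 1, 0 and 1 in the knockout libraries. It fell against parental cells in both clones (adjusted p = 0.0023 for the knockout clone and 0.0128 for the control clone). The second call was lost without control library 1 (adjusted p = 0.0507). The parental level was 32.5 times that of the knockout clone, with a 95% counting interval of 8.64 to 274.

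In the group of 15 anion channels and exchangers, 3 were higher and 6 lower against the control clone, and 1 was higher and 5 lower against parental cells. Over all tested genes the shares were 42.9% (18.7% higher, 24.2% lower) and 31.4% (13.1% higher, 18.3% lower). Ano1, a calcium-activated chloride channel, was lower in both comparisons (-0.76, adjusted p = 0.000406, and -0.95, adjusted p = 0.000198), and so was the related Ano6 (-0.39, adjusted p = 0.00651, and -0.57, adjusted p = 0.0013). Lrrc8b, a subunit of the volume-regulated anion channel, was higher in both (0.73, adjusted p = 8.14e-05, and 0.37, adjusted p = 0.00498). Among the other subunits of this channel, Lrrc8c was higher against the control clone (0.52, adjusted p = 0.0464) and gave 0.39 (adjusted p = 0.136) against parental cells. Lrrc8d gave -0.18 (adjusted p = 0.195) and was lower against parental cells (-0.46, adjusted p = 0.00958), and Lrrc8a and Lrrc8e were called in neither. Ano1, Ano6, the Lrrc8 genes, Cab39l and Cab39 were named after their values were seen. Cftr, the cyclic AMP-regulated anion channel of ducts, had 4, 2 and 5 counts in the knockout libraries, 0 in all control libraries and 25, 24 and 30 in the parental libraries. The knockout clone lay below parental cells (-2.84, SE 0.43, adjusted p = 0.0024). The control clone lay below them too, by at least 28.3-fold (adjusted p = 0.000712), so the clone without editing had the lower level.

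Among 9 genes of cation transport, water flow and volume sensing, 7 were tested: 1 was higher and 4 lower against the control clone, and 3 were lower against parental cells, beside 42.9% and 31.4% called in either direction over all tested genes. Aqp1, a water channel, read 31.4, 36.9 and 36.6 CPM in the knockout libraries, 175, 79.7 and 105 in the control libraries and 110, 130 and 150 in the parental libraries. Relative to the control clone it fell by 1.78 (SE 0.26, adjusted p = 0.000563), and by 1.89 (SE 0.26, adjusted p = 0.000647) against parental cells, with no overlap between the knockout libraries and the others. Aqp5, a water channel of secretory epithelia, was a feature of the control clone: means were 37.1 ± 1.93 CPM in the knockout clone, 265 ± 62.1 in the control clone and 35.9 ± 2.66 in parental cells. The control clone exceeded parental cells by 2.88 on the log2 scale (SE 0.17, adjusted p = 2.02e-05). Aqp3, which passes water and glycerol, had 22, 27 and 44 counts in the parental libraries and no more than 7 in any library of either clone. It was lower than in parental cells in the knockout clone (-4.18, SE 0.56, adjusted p = 0.000557) and in the control clone (-2.65, SE 0.46, adjusted p = 0.00411).

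The sodium pump and epithelial sodium channel gave 8 genes, of which 6 were tested, with 4 lower against the control clone, 3 lower against parental cells and none higher. Lower calls made up 24.2% and 18.3% of all tested genes. Atp1b1, the beta subunit of the pump that supplies the sodium gradient for NKCC1, read 57.0, 64.3 and 51.4 CPM in the knockout libraries, 117, 124 and 116 in the control libraries and 163, 145 and 189 in the parental libraries. The groups do not overlap, and it fell by 1.05 (SE 0.11, adjusted p = 0.000124) and by 1.52 (SE 0.11, adjusted p = 3.34e-05). Fxyd3, a modulator of the pump, had no count in the knockout clone, 158, 59 and 152 counts in the control libraries and 63, 64 and 128 in the parental libraries. The knockout clone was at least 116-fold below the control clone (adjusted p = 0.00027). Below parental cells the bound was 86.3-fold (adjusted p = 0.00058). Exons of Atp1b1 and Fxyd3 are overlapped on the other strand by Nme7 (190 to 407 counts) and Lgi4 (0 to 11 counts). Scnn1a, the alpha subunit of the epithelial sodium channel, was lower in both (-1.49, adjusted p = 0.00933, and -1.45, adjusted p = 0.0154) from levels near 1.3 CPM, and the second call was lost in 2 of 16 alternatives. Scnn1b and Scnn1g had no count in any library.

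Of 6 genes of the response to hypertonicity, 5 were tested, with 2 higher and 2 lower against the control clone and 2 higher and 1 lower against parental cells, where 42.9% and 31.4% of all tested genes were called. Nfat5, the transcription factor that drives this response, differed by -0.19 (adjusted p = 0.211) and 0.22 (adjusted p = 0.172). Akr1b3, which makes the osmolyte sorbitol, was higher in both (0.75, adjusted p = 0.000124, and 0.66, adjusted p = 0.000405), as was the amino acid carrier Slc38a2 (0.46, adjusted p = 0.00218, and 0.44, adjusted p = 0.00428). Slc6a6, the taurine carrier, was lower in both (-0.43, adjusted p = 0.000984, and -0.35, adjusted p = 0.00402). Slc5a3, the remaining tested gene of this group, was lower against the control clone (-0.68, adjusted p = 0.0233). It gave -0.41 (adjusted p = 0.158) against parental cells, and exons of Mrps6 and Gm49711 overlap it on the same strand. The osmolyte genes therefore did not move one way. Nfat5, Akr1b3, Slc38a2, Slc6a6 and Slc5a3 were named after their values were seen.

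The neighbourhood of Stk39 was described because the gene had no count in the knockout clone. The 5 nearest tested genes on either side all had counts in every knockout library. The nearest, Gm13597, has its nearer end 82.3 kb upstream of the Stk39 start and read 12.5, 16.6 and 9.64 CPM in the knockout libraries and 9.44 to 14.9 CPM in the others. It differed by 0.08 (adjusted p = 0.786) and 0.22 (adjusted p = 0.479). Cers6, a ceramide synthase whose nearest end lies 389 kb upstream, was lower against the control clone (-0.56, adjusted p = 0.00341) and gave -0.29 (adjusted p = 0.0792) against parental cells, called in 2 of 17 alternatives.

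Nostrin, an adaptor of endocytosis 664 kb upstream, was the neighbour with the largest differences of the 10: it read 2.10, 2.23 and 2.74 CPM in the knockout libraries, 7.25, 6.37 and 11.4 in the control libraries and 9.73, 8.66 and 13.1 in the parental libraries. It fell by 1.83 (adjusted p = 0.000578) and by 2.15 (adjusted p = 0.00039). On the far side of Stk39 the nearest tested gene, the sodium channel Scn9a, lies 1837 kb from the Stk39 start and was low in every library. In all, 5 of the 10 neighbours were called against the control clone and 4 against parental cells, near the 42.9% and 31.4% of all tested genes. Of these, Ttc21b was higher in both and Cobll1 and Nostrin were lower in both. The Cobll1 call against the control clone was lost in 12 of 17 alternatives and the Ttc21b call against parental cells in 8 of 17. The remaining neighbours are Scn2a, Galnt3, Spc25 and Dhrs9.

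**Figure D5:**
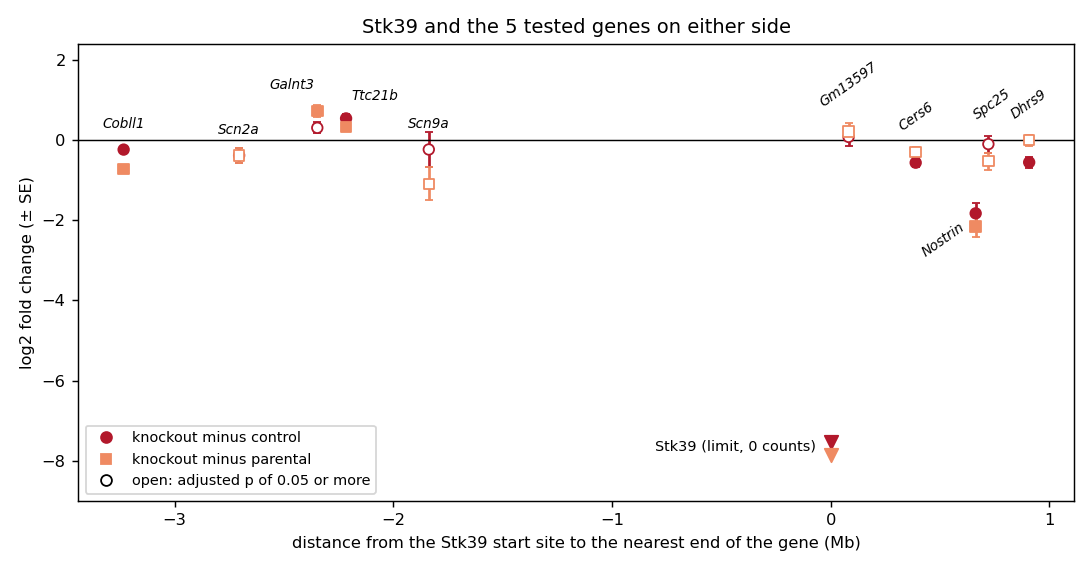
Log2 fold change (± SE) of the knockout clone for Stk39 and the 5 tested genes on either side, against the distance in Mb from the Stk39 start site to the nearest end of each gene, positive upstream. Circles are against the control clone, squares against parental cells, open symbols did not pass an adjusted p of 0.05 and triangles are counting limits. Nostrin lies at -1.83 and -2.15 and the other neighbours lie between -1.09 and 0.73.

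The 5 genes whose log2 CPM followed Stk39 most closely over the 9 libraries were Panx1 (Pearson r = 0.998), Cdca7l (0.998), Tbcel (0.997), E2f6 (0.996) and Gnao1 (0.994). Each is at or near 0 in the 3 knockout libraries, and this common gap sets the correlation, so the values describe a shared off state in 1 clone. Panx1, a channel-forming membrane protein, and Cdca7l had no count in the knockout clone and ranged from 8.12 to 10.3 CPM and from 7.61 to 8.57 CPM in the control clone. Panx1 and Tbcel lie on chromosome 9, Cdca7l and E2f6 on chromosome 12 and Gnao1 on chromosome 8, while Stk39 lies on chromosome 2. Tested genes of chromosome 9 had median log2 differences of -0.53 and -0.53 against the control clone and parental cells. On chromosome 2 the medians were -0.07 and -0.08. A part of such chromosome-wide shifts in the off state was not tested. Genes with 0 counts in all 3 knockout libraries and a mean of at least 5 CPM in both other groups numbered 9, among them Stk39, Panx1, Cdca7l and Gnao1. Another of the 9, Rpl10-ps1, had 0, 443 and 0 counts in the parental libraries and met the rule through parental library 2 alone. The same rule found 0 genes silent in the control clone and 0 in parental cells.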

How the data were processed

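The authors deposited RSEM estimated counts, 1 column per library, and all were whole numbers. Per the submitters' processing notes the tools were STAR 2.5.2, RSEM 1.3.0 and DESeq2 1.10.1 on build GRCm38. The annotation release and strand setting are not given in the sources used here, so overlapping genes are uncertain. GENCODE M21 gave symbols and positions for 54723 of the 54838 identifiers.

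The test was edgeR 4.0.16 quasi-likelihood in R 4.3.3 (filterByExpr with minimum count 10 and minimum total 15, TMM, all 9 libraries in 1 fit, group as the only term). Calls took a Benjamini-Hochberg adjusted p under 0.05 over 13153 genes, and adjusted p-values are from this fit unless the sentence names a library left out. The script was tested on simulated counts. Members and lists were chosen with earlier results of these data known.

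Pathway genes were named when called in both knockout comparisons in 1 direction, or between control clone and parental cells, and the log2 fold change reached 1 in size. Some further pathway genes outside this rule were named after their values were seen, as stated with them. The rule also names other WNK and SLC12 genes, 5 neighbours on either side of Stk39 and the 5 genes of at least 5 CPM most correlated with it (log2 CPM, prior count 2). Motif counts use 250 bases before each RefSeq start. Alternatives were other scalings, filters and tests (DESeq2 1.42.0, limma 3.58.1), the replicate block, only the groups compared, and each library left out. Protein sequences were not analysed here. A gene of the pathway list is not reported here by name, though counts over the list include it.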

Additional observations from a re-analysis of the deposited data

How the results depend on the processing

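Member values kept their direction and their side of the threshold in 382 of the alternative results, gained a call in 15, lost one in 8 and changed sign in 3. For Zdhhc20, Slc12a5, the neighbours of Stk39 and the pathway genes that met the naming rule, these numbers were 1021, 23, 29 and 18. Genes named after their values were seen and the genes most correlated with Stk39 are not in these numbers. Every change of sign was in a difference that passed the test neither in the reported fit nor in the alternative. The knockout clone against parental cells gave 4131 calls, 6840 in a fit of only the groups compared and 2515 to 5693 with single libraries left out, lowest without parental library 3. It also gave 2626 calls without knockout library 1. The control clone against parental cells gave 2814 calls, 1525 with only the groups compared and 1472 to 4102 with libraries left out, and 1472, 1537 and 1792 without parental library 1, 2 or 3. The pathway list against parental cells gave 19 calls, 29 with only the groups compared and 16 to 27 with libraries left out. Its calls between the control clone and parental cells numbered 8 to 16 around 12. These causes were not tested. Scaling by total counts moved the lower share of calls between control clone and parental cells from 51.3% to 61.2%.

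The replicate numbers showed no pairing in the correlations: those of same-numbered libraries ran from -0.13 to 0.21 and those of differently numbered ones from -0.30 to 0.25. How the libraries were processed cannot be read from these values. With the replicate block, 5528 genes were called against the control clone (5643 without), 3941 against parental cells (4131 without) and 2492 between control clone and parental cells (2814 without). The pathway calls under the block were 26, 18 and 12. Low counts limit Wnk4, Slc12a1, Klhl3, Aqp3 and Scnn1a.

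The differences that changed sign are given by their range with single libraries left out. Against the control clone these were Wnk1 (-0.0751 to 0.14, negative without control library 1), Scn9a (-0.44 to 0.24), Gm13597 (-0.13 to 0.26) and Spc25 (-0.34 to 0.11). Against parental cells the knockout clone gave Aqp5 (-0.0184 to 0.0853), Gm13597 (-0.002 to 0.39) and Dhrs9 (-0.0704 to 0.0876, and 0.0064 with no filter). Between the control clone and parental cells the members were Oxsr1 (-0.14 to 0.0112, positive without control library 1) and Wnk4 (-0.39 to 0.009, positive without control library 2). The others there were Aqp1 (-0.49 to 0.11), Slc12a5 (-0.53 to 0.15), Scn2a (-0.10 to 0.14), Gm13597 (-0.0275 to 0.26) and Scnn1a (-0.22 to 0.18, -0.0115 with limma voom and -0.005 with total counts).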
